A study of Mus musculus with 18 samples.

Results

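To ask what targeting cyclophilin A alone did to the transcriptome of small cell lung cancer (SCLC) cells that lack p53, RNA from cells carrying the sgRNA sgPpia#4.1 was compared with RNA from cells carrying the control sgRNA sgBgal, in the Control state. sgPpia#4.1 targets exon 4 of Ppia, the mouse gene for cyclophilin A. sgBgal targets bacterial β-galactosidase, which mouse cells do not encode. Each sgRNA was sequenced in 3 Type D mouse SCLC lines, 4711-1, 4711-18 and 4716-11, and each line gave 1 pair. The 6 samples are part of a series of 18, which also holds a second Ppia guide (sgPpia#3.2) and the Restored state for every sgRNA. All 25239 genes of the deposited table were considered, and the 11699 with at least 1 TPM (a transcript level scaled for gene length and library size) in 3 or more of the 6 samples were tested.

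The lines were derived from separate tumors of mice with floxed Rb1 and Rbl2, a Trp53 XTR allele and Rosa26 FlpO-ER, in which an adenovirus carrying Cre under the CMV promoter had started the tumors. By design, both groups had Rb1 and Rbl2 deleted and carried a gene trap in Trp53, and both received the vehicle for 72 h. Restored cells received 500 nM 4-OHT for the same 72 h, which activates the FlpO-ER fusion and removes the trap. The cells were LentiCRISPRv2 populations sequenced after selection for the sgRNA, so each sample may mix edited and unedited cells. The lines 4711-1 and 4711-18 share a prefix in their names, and the labels do not say whether they came from 1 mouse. The p-values below rest on 3 lines, each sampled once per sgRNA, so line and culture cannot be told apart. Those from limma also draw on the spread pooled over all genes.

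Cyclophilin A is an abundant cytosolic peptidyl-prolyl isomerase, an enzyme that speeds the turning of the peptide bond before proline. It is one of the proteins that bind cyclosporin A, and that complex inhibits the phosphatase calcineurin. Cyclophilin A can also leave cells and bind the surface protein basigin, while other family members work in the mitochondrial matrix (cyclophilin D, from Ppif), the endoplasmic reticulum (cyclophilin B, from Ppib) and the spliceosome (cyclophilin E, from Ppie).

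Several markers of the labelled cell type were absent or nearly so. The SCLC regulators Neurod1 and Pou2f3 and the neuropeptide gene Calca were at 0.1 TPM or less in all 6 samples, whereas Yap1 stood between 67.0 and 116 TPM and the epithelial keratin genes Krt8, Krt18 and Krt19 between 2845 and 8542 TPM. Of the 30 epithelial genes in the list, 21 reached the level for testing, and Epcam (0.08 to 6.25 TPM), Esrp1 and Grhl2 (each under 1 TPM) were among the 9 that did not. The neural genes Syp and Ncam1 were present at 3.69 to 6.50 and 6.90 to 21.6 TPM. Summed markers of fibroblasts (10 genes) were 0.44 to 1.00 TPM, those of endothelium (10 genes) 0.81 to 2.54 TPM, and those of immune cells (10 genes) 3.36 to 6.10 TPM, with the 2 groups overlapping in each. Only the 2 immune genes Cd68 and Lyz2 reached the level for testing. Relative sequencing depth, read from the spacing of low values with the shallowest of the 18 samples set to 1, was 1.09 to 1.57 with sgBgal and 1.07 to 1.73 with sgPpia#4.1.

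Ppia itself was lower with sgPpia#4.1 in every line. In sgBgal cells Ppia stood at 2704 TPM in 4711-1, 2575 TPM in 4711-18 and 2849 TPM in 4716-11, and in sgPpia#4.1 cells at 1713, 1684 and 1952 TPM. The groups did not overlap, and 63.3%, 65.4% and 68.5% of the sgBgal level remained (mean 65.8% ± 2.61 SD, n = 3 lines). The mean paired difference was -0.61 on the log2(TPM + 1) scale with a standard error of 0.11 (limma, unadjusted p = 0.00139, adjusted p = 1.00), and Ppia ranked at place 13 by p among the genes tested. An exact two-sided permutation test gave p = 0.1, and an exact sign-flip test over the pairs gave p = 0.25, each the smallest value possible with 3 lines. The TPM counts all reads of the gene, so it measures neither the edited share of the cells nor the protein.

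**Figure D1:**
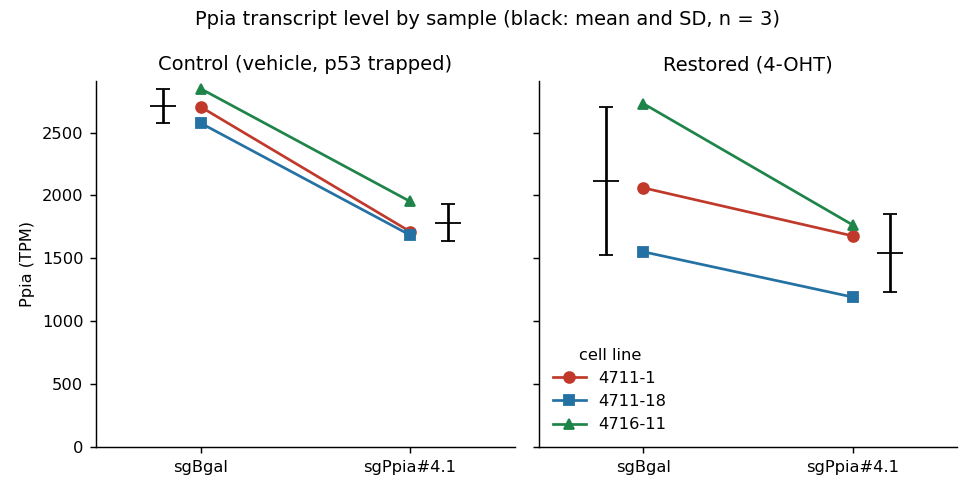
Ppia level in TPM (y axis) in sgBgal and sgPpia#4.1 cells (x axis), with 1 line per cell line, Control cells on the left and Restored cells on the right, and the mean ± SD in black (n = 3). Every pair slopes downward, and in Control cells the sgPpia#4.1 samples lie at 1684 to 1952 TPM against 2575 to 2849 TPM.

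The second guide left less Ppia RNA in the same sgBgal-matched lines. sgPpia#3.2 Control cells held 1073, 658 and 1207 TPM in 4711-1, 4711-18 and 4716-11, which is 39.7%, 25.5% and 42.4% of the sgBgal level. Both guides are set against the same 3 sgBgal samples, so the 2 sets of percentages are not independent. Because Ppia has many processed copies, reads can be shared among loci. In the GENCODE M21 transcripts, 37 other annotated genes shared at least 31 stretches of 31 bases with Ppia. Of these, 2 were in the table. E030024N20Rik stayed under 1 TPM in all 6 samples, and Gclm, a glutathione synthesis gene, stood at 122, 184 and 158 TPM with sgBgal and 124, 172 and 136 TPM with sgPpia#4.1. The other 35 were not analysed here.

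The groups overlapped for every other cyclophilin tested. Of the 17 in the list, 16 including Ppia were tested, none passed the test, and 12 had a lower mean with sgPpia#4.1. The lower sign was shared by all 3 lines for 5 of 16, Ppia included, where 16.7% of all genes tested did so, and after rescaling for 1 of 16 (10.8% of all genes). In all 3 lines 1 of 16 was higher (Ppig), where 7.21% of all genes were. Ppie stood at 63.6, 67.0 and 96.2 TPM with sgBgal and at 78.1, 81.4 and 93.9 TPM with sgPpia#4.1, so that 2 lines were higher and 1 lower. Ppif stood at 15.9, 26.5 and 12.5 TPM against 11.9, 30.6 and 12.5 TPM, with no shared sign. Ppib, at 203, 171 and 202 TPM against 183, 177 and 195 TPM, also overlapped between groups. The differences furthest from 0 in a single line, apart from Ppia, were those of Nktr (-0.53) and Ranbp2 (-0.49), which encode large proteins with a cyclophilin domain, in 4711-18, where Ppia differed by -0.61. In the other lines Nktr differed by 0.04 and 0.24 and Ranbp2 by 0.24 and -0.03. Bsg, which encodes basigin, was higher in each line, from 953, 851 and 1169 TPM to 1412, 915 and 1386 TPM. The paired differences in Bsg were 0.57, 0.10 and 0.25, with a mean of 0.31 (standard error 0.13), but the groups overlapped and the adjusted p was 1.00 (limma).

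In these cells Trp53 is trapped. Trp53 RNA stood at 7.42, 8.41 and 7.45 TPM with sgBgal and 5.81, 8.27 and 7.24 TPM with sgPpia#4.1. The cell cycle inhibitor gene Cdkn1a stood at 122, 154 and 107 TPM against 129, 171 and 117 TPM. Mdm2, which encodes the ubiquitin ligase for p53, stood at 93.3, 88.8 and 68.6 TPM against 76.2, 92.3 and 65.2 TPM. Cdkn1a and Mdm2 were picked for mention with their values known. The groups overlapped for all 3 genes. Of 32 p53 target genes tested, 23 had a lower mean (63.5% of all genes did) and the list's median difference was -0.08, beside -0.04 over all genes. In every line, 6 were lower (16.7% of all genes) and 3 higher (7.21%), and after rescaling 2 were lower (10.8%) and 4 higher (12.4%). The list's medians were -0.15 in 4711-1, -0.04 in 4711-18 and 0.03 in 4716-11. Without 4711-1, 16 of 32 had a lower mean, where 8512 of all 11699 genes did. In 4711-1, 4 of 32 were lower by at least 1 (1.3% of all genes), namely Plk2, Btg2, Gdf15 and Plk3, and 0 of 32 in the other lines. Btg2, an antiproliferative gene that is also induced early by growth signals, stood at 278, 145 and 64.7 TPM with sgBgal and at 65.4, 116 and 94.3 TPM with sgPpia#4.1. Gdf15, which encodes a stress cytokine, stood at 259, 1065 and 667 TPM against 91.8, 1327 and 771 TPM. Plk3, of the polo-like kinase family, stood at 41.0, 15.3 and 20.98 TPM against 16.5, 18.1 and 22.0 TPM. For these genes only 4711-1 was lower by that amount, and they too were named with their values known. The 3 targets higher in every line were Cdkn1a, Bax and Phlda3. Bax, a pore-forming death gene, differed by 0.29, 0.30 and 0.09, and Phlda3, an inhibitor of Akt signalling, by 0.26, 0.39 and 0.04. Of the 6 lower in every line, Plk2 had the lowest mean, set by 4711-1 and described further on. The next was Ddit4l, a relative of the mTOR inhibitor gene Ddit4, which stood at 2.23, 1.47 and 1.60 TPM with sgBgal and 0.87, 1.00 and 0.84 TPM with sgPpia#4.1.

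Across all 11699 genes, none passed a Benjamini-Hochberg adjusted p of 0.05 together with a log2 difference of 1 in limma's test with cell line as a block (0% called), and none passed the adjusted p alone. The smallest adjusted p was 0.113. Without correction, 386 genes (3.3%) had p under 0.05, 97 of them higher and 289 lower with sgPpia#4.1. The fit without the replicate block gave 0 calls and 34 genes at an unadjusted p under 0.05. The count of 0 depended on the lines: with the block, 15 genes passed without 4711-1, 0 without 4711-18 and 24 without 4716-11. Each of these fits held 2 pairs per gene, and limma's standard error also draws on the spread pooled over all genes. The groups did not overlap for 260 genes (2.22%). A shared sign in all 3 lines was seen for 2798 genes (23.9%), of which 844 were higher (7.21%) and 1954 lower (16.7%). This split moved with the scale. The median gene in 4711-18 was lower by a difference of -0.16, against 0.05 in 4711-1 and -0.02 in 4716-11. After median-of-ratios rescaling, an alternative chosen after the data were seen for these counts, 1450 genes were higher in all lines and 1262 lower, so that the higher share was 53.5% instead of 30.2%. For the gene lists below, counts of members with one sign in every line are therefore given with their rescaled counts, where 10.8% of all genes were lower in every line and 12.4% higher.

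The 3 lines differed from their sgBgal partners by different amounts. Among genes of at least 5 TPM in either sample, 100 were at least 2-fold higher and 109 at least 2-fold lower in 4711-1, which is 2.12% of 9845. In 4711-18, 8 were higher and 28 lower (0.372% of 9665), and in 4716-11, 13 were higher and 11 lower (0.256% of 9379). The standard deviation of the difference over genes was 0.38 in 4711-1, 0.26 in 4711-18 and 0.21 in 4716-11. Across the 11699 genes the differences of any 2 lines correlated with r between -0.08 and 0.04. No protein-coding gene differed by at least 1 in the same direction in every line. The Ppia differences of the 3 lines lay closer together, at -0.66, -0.61 and -0.55.

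**Figure D2:**
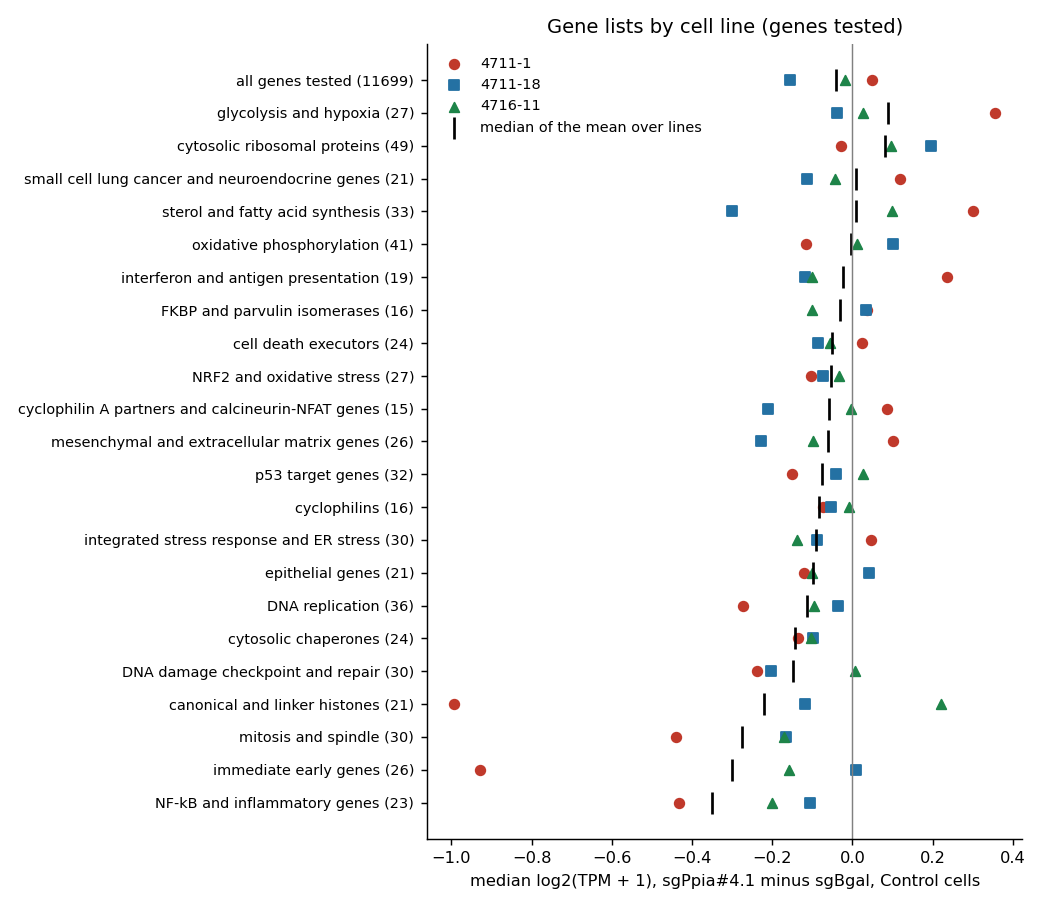
Median difference of each gene list on the log2(TPM + 1) scale (x axis, sgPpia#4.1 minus sgBgal, Control cells), with 1 symbol per line, the median of the members' means as a bar, and the number of genes tested in brackets. The immediate early genes and the histones stand near -0.93 and -0.99 in 4711-1 and nearer 0 in the other lines, while the mitosis and spindle list lies below 0 in every line.

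Few single genes kept a sizeable difference in every line. Hes1, a transcriptional repressor that Notch signalling switches on, stood at 298, 234 and 149 TPM with sgBgal and at 124, 158 and 88.4 TPM with sgPpia#4.1. Its paired differences were -1.26, -0.57 and -0.75, and the mean was -0.86 with a standard error of 0.16 (limma, unadjusted p = 0.00159, adjusted p = 1.00). The groups overlapped, since 158 TPM in one line is above 149 TPM in another, although each line was lower. With sgPpia#3.2, on the same sgBgal samples, Hes1 stood at 142, 73.4 and 115 TPM. In Restored cells the Hes1 differences with sgPpia#4.1 were -0.92, 0.22 and -0.11, so the sign was not shared there, and the interaction of sgRNA and state had an adjusted p of 1.00 (limma).

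Lbp, which encodes a plasma protein that binds bacterial lipopolysaccharide, and Depp1, a FOXO-regulated autophagy gene, were lower in every pair of both states. Lbp stood at 139, 75.8 and 46.4 TPM with sgBgal and at 96.3, 47.1 and 31.9 TPM with sgPpia#4.1, a mean difference of -0.58 (standard error 0.11). The Restored differences of Lbp were -0.76, -0.28 and -1.47. In both Control groups the Lbp level was highest in 4711-1 and lowest in 4716-11. Depp1 stood at 16.2, 21.6 and 2.10 TPM with sgBgal and at 3.99, 12.1 and 1.02 TPM with sgPpia#4.1, a mean difference of -1.06 (standard error 0.23), and its Restored differences were -1.61, -0.38 and -0.57. With sgPpia#3.2 and the shared sgBgal samples, Lbp stood at 32.9, 65.9 and 23.4 TPM and Depp1 at 1.78, 3.70 and 0.82 TPM, each below sgBgal in each line. Neither gene passed the adjusted threshold in limma (adjusted p = 1.00 for each). Such agreement of all 6 pairs was seen for 1048 genes, 8.96% of those tested.

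The genes higher in every line were led by small RNAs, described further on, and by a few protein-coding genes. Bnip3, a mitophagy receptor gene of the hypoxia response, stood at 59.4, 69.9 and 134 TPM with sgBgal and at 171, 76.7 and 191 TPM with sgPpia#4.1. The Bnip3 differences were 1.51, 0.13 and 0.51, so most of the mean of 0.72 came from 4711-1 (limma, unadjusted p = 0.0309, adjusted p = 1.00). Mmp13, a collagenase gene, stood at 91.2, 6.30 and 24.1 TPM against 253, 8.98 and 25.3 TPM, again with 4711-1 far apart. Zkscan14, a zinc finger gene, stood at 4.19, 7.27 and 3.50 TPM against 9.51, 8.45 and 5.48 TPM.

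**Figure D3:**
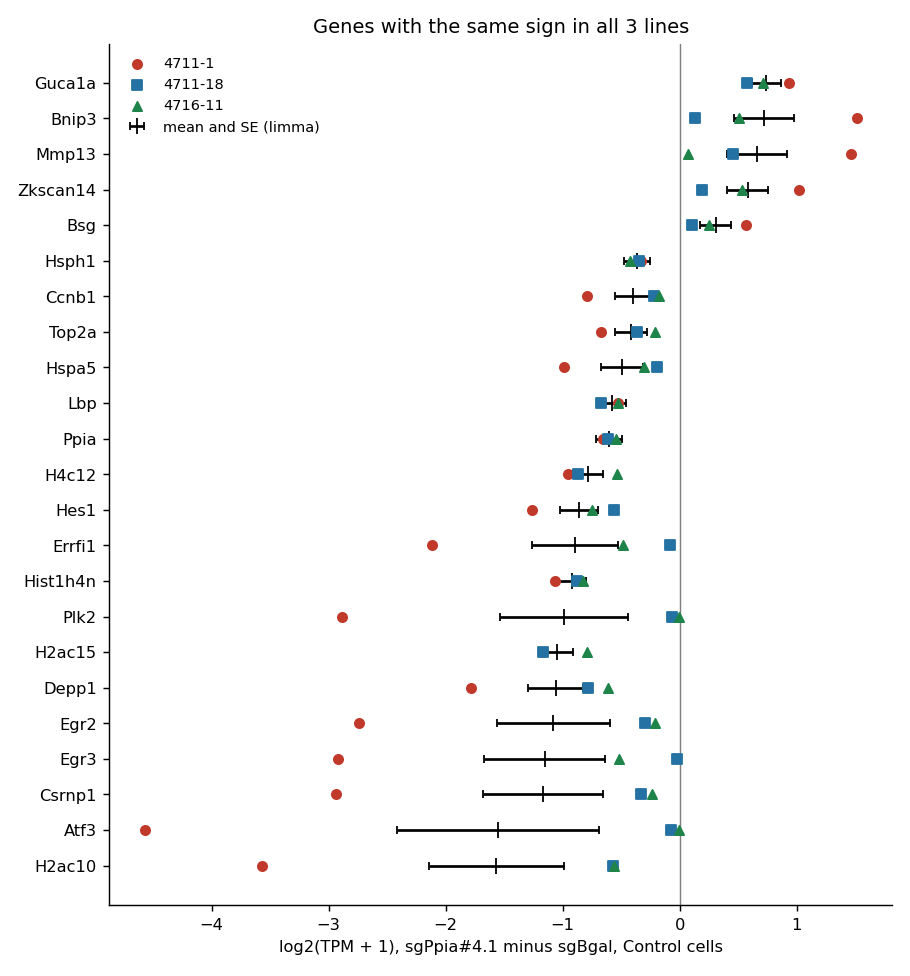
Paired differences on the log2(TPM + 1) scale (x axis, sgPpia#4.1 minus sgBgal, Control cells) for protein-coding genes with the same sign in all 3 lines, with 1 symbol per line and the mean ± SE from limma in black (n = 3 pairs). For Ppia, Lbp and Hsph1 the 3 lines lie close together, while for Atf3, Plk2 and Csrnp1 the symbol of 4711-1 stands far to the left of the others.

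Genes of cell division were lower as a group, by small amounts. All 30 mitosis and spindle genes tested had a lower mean, 24 of 30 were lower in every line (16.7% of all genes were), and 12 of 30 had an unadjusted p under 0.05 (3.3% of all genes in either direction), though none passed the adjusted threshold. The list's median difference was -0.44 in 4711-1, -0.17 in 4711-18 and -0.17 in 4716-11. In both lines other than 4711-1, 24 members were lower (41.7% of all genes were). In 4711-18 the list's value was close to that line's median over all genes, -0.16, and after rescaling the list's median there was -0.00, against -0.46 and -0.16 in the other lines, with 14 of 30 lower in every line. All 30 genes are also in a list of 226 tested genes that the study drew from other RNA samples of these and related lines (its Module 3), of which 201 were lower on average and 126 in every line (81 after rescaling). In bulk RNA, fewer dividing cells and less RNA per dividing cell cannot be told apart.

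Top2a, the topoisomerase that untangles replicated chromosomes, stood at 181, 197 and 138 TPM with sgBgal and at 113, 152 and 119 TPM with sgPpia#4.1, differences of -0.68, -0.37 and -0.21. Ccnb1, which encodes the mitotic cyclin B1, stood at 218, 271 and 177 TPM against 126, 232 and 157 TPM. Kif11 (a spindle motor) and Mki67 (the Ki-67 antigen), named with their values known, stood at 91.4, 74.0 and 65.9 TPM against 66.9, 56.0 and 55.6 TPM, and at 99.6, 92.5 and 77.2 TPM against 70.6, 63.8 and 71.8 TPM. For Kif11 the highest sgPpia#4.1 sample (66.9) exceeded the lowest sgBgal sample (65.9), and for Mki67 the groups did not overlap. In the Restored pairs the list's medians were -0.97, 0.17 and -0.16, and with sgPpia#3.2 in Control cells, on the shared sgBgal samples, they were -0.04, -1.38 and -0.15. The line with the lowest median was therefore 4711-1 for one guide and 4711-18 for the other.

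DNA replication genes showed a smaller difference. Of 36 tested, 34 had a lower mean (63.5% of all genes did) and 23 were lower in every line (16.7%), but 9 were after rescaling (10.8%). The list's medians were -0.27, -0.04 and -0.10, and after rescaling that of 4711-18 was 0.12, so the direction turned there. Cdc6, a licensing factor gene, stood at 22.1, 23.0 and 18.4 TPM with sgBgal and at 12.8, 19.5 and 13.99 TPM with sgPpia#4.1. Fancd2, of the Fanconi anemia repair pathway, stood at 12.6, 13.002 and 10.4 TPM against 7.41, 9.47 and 8.58 TPM, with no overlap between the groups. Against these, 41 of 49 cytosolic ribosomal protein genes had a higher mean, 19 of 49 in every line (7.21% of all genes, and again 19 after rescaling), with medians of -0.03, 0.20 and 0.10. Rpl13a, a ribosomal protein gene, stood at 3363, 3286 and 3714 TPM with sgBgal and at 4125, 4046 and 4386 TPM with sgPpia#4.1, without overlap, as differences of 0.29, 0.30 and 0.24.

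The immediate early genes differed by far more in 4711-1 than in the other lines. Immediate early genes are transcribed within minutes of a growth factor or stress signal, without new protein synthesis, and many encode transcription factors (Fos, Fosb, Jun, Atf3, the Egr genes, Nr4a1) or phosphatases that switch the kinases off again (Dusp1, Dusp5). Of 26 tested, 23 had a lower mean with sgPpia#4.1 (63.5% of all genes did), and 6 were lower in every line (1 after rescaling). In 4711-1, 12 of 26 were lower by at least 1 on the log2 scale (1.3% of all genes), and in 4711-18 and 4716-11 0 of 26 were (0.402% and 0.188% of all genes). The list's medians were -0.93 in 4711-1, 0.01 in 4711-18 and -0.16 in 4716-11. Without 4711-1, the median was -0.12 (-0.09 over all genes) and 8 of 26 were lower in both of the other lines (41.7% of all genes were). No member passed the adjusted threshold or had an unadjusted p under 0.05. Without 4716-11, Atf3, Fosb, Jun, Egr2 and Dusp1 passed, at mean differences of -2.32, -1.53, -1.42, -1.52 and -1.30 (limma, adjusted p = 0.0291 to 0.0485). Their differences ran from -4.57 to -2.15 in 4711-1 and from -0.59 to -0.07 in 4711-18, so 4711-1 carried most of each mean. These adjusted p-values also draw on the spread pooled over all genes, so they do not measure the spread between the lines.

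Some of these genes, and Plk2 from outside the list, have known binding sequences near their start. The 3 windows shown were picked because they hold a motif, so that the letters can be seen beside the values. Each runs 5′ to 3′ on the gene's strand from 150 to 51 bases before the RefSeq start (GRCm38.p6), with the motif in capitals. Dusp5 (chr19:53528995-53529094, plus strand) and Dusp1 (chr17:26508523-26508622, minus strand) encode phosphatases of MAP kinases, and Plk2 (chr13:110394894-110394993, plus strand) a stress-induced kinase. Capitals mark a pair of adjacent CArG boxes, the serum response element core, in Dusp5, whose first bases lie 82 and 72 bases before the start. In Dusp1 and Plk2 they mark the cAMP response element TGACGTCA, 143 and 62 bases before the start.
Dusp5: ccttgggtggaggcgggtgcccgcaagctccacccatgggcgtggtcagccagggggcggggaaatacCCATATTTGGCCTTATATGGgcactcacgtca
Dusp1: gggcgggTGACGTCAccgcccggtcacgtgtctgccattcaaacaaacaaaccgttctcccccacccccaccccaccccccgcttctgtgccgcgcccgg
Plk2: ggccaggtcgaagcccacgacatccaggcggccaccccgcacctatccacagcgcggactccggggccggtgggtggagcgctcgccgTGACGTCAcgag
Both motifs were searched on both strands in windows of 300 bases (250 before to 50 after the start). The cAMP response element was in 347 of the 9261 tested genes with a window (3.75%) and the CArG box in 142 (1.53%). Of the 12 immediate early genes low in 4711-1, 10 had a window, of which 1 held the cAMP response element and 2 a CArG box. The match is a description of letters and not of binding.

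Dusp5, Dusp1 and Plk2 were each highest in the sgBgal sample of 4711-1. Dusp5 stood at 528, 102 and 272 TPM with sgBgal and at 75.5, 116 and 205 TPM with sgPpia#4.1. Dusp1 stood at 814, 291 and 384 TPM against 183, 213 and 443 TPM. Plk2, which is no member of the immediate early list, stood at 349, 126 and 197 TPM against 46.3, 120 and 196 TPM. The window of Dusp5 differs in motif from those of Dusp1 and Plk2, while the values of all 3 genes were highest of the 6 in the same sample. The sgPpia#3.2 Control sample of 4711-1 was close to it, at 508 TPM for Dusp5, 742 TPM for Dusp1 and 318 TPM for Plk2.

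Atf3, a stress-induced transcription factor gene, had the most negative difference of the list in 4711-1. It stood at 768, 240 and 286 TPM with sgBgal and at 31.4, 228 and 285 TPM with sgPpia#4.1, as differences of -4.57, -0.07 and -0.01. In Restored cells of 4711-1 Atf3 stood at 285 TPM with sgBgal and at 6.05 TPM with sgPpia#4.1. With sgPpia#3.2 in Control cells it stood at 414, 87.1 and 341 TPM, lower than sgBgal in 4711-1 and 4711-18. The low level in sgPpia#4.1 cells of 4711-1 was thus seen in both samples of that population. Nr4a1, an orphan nuclear receptor gene, stood at 329, 215 and 72.6 TPM against 19.4, 233 and 70.0 TPM. Fos stood at 1276, 337 and 293 TPM against 338, 287 and 410 TPM. Egr1, a zinc finger factor gene, stood at 1221, 516 and 425 TPM against 445, 511 and 446 TPM. Among these 6 samples, Fos and Egr1 were highest in the sgBgal sample of 4711-1, and the sgPpia#4.1 sample of that line lay within the range of the other lines. Within 4711-1 the level was also high with sgPpia#3.2 (848 TPM for Fos and 773 TPM for Egr1) and in Restored sgBgal cells (682 and 1188 TPM), so in this line the sgPpia#4.1 sample was the low one. For Atf3 and Nr4a1 that sample was the lowest of the 6.

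**Figure D4:**
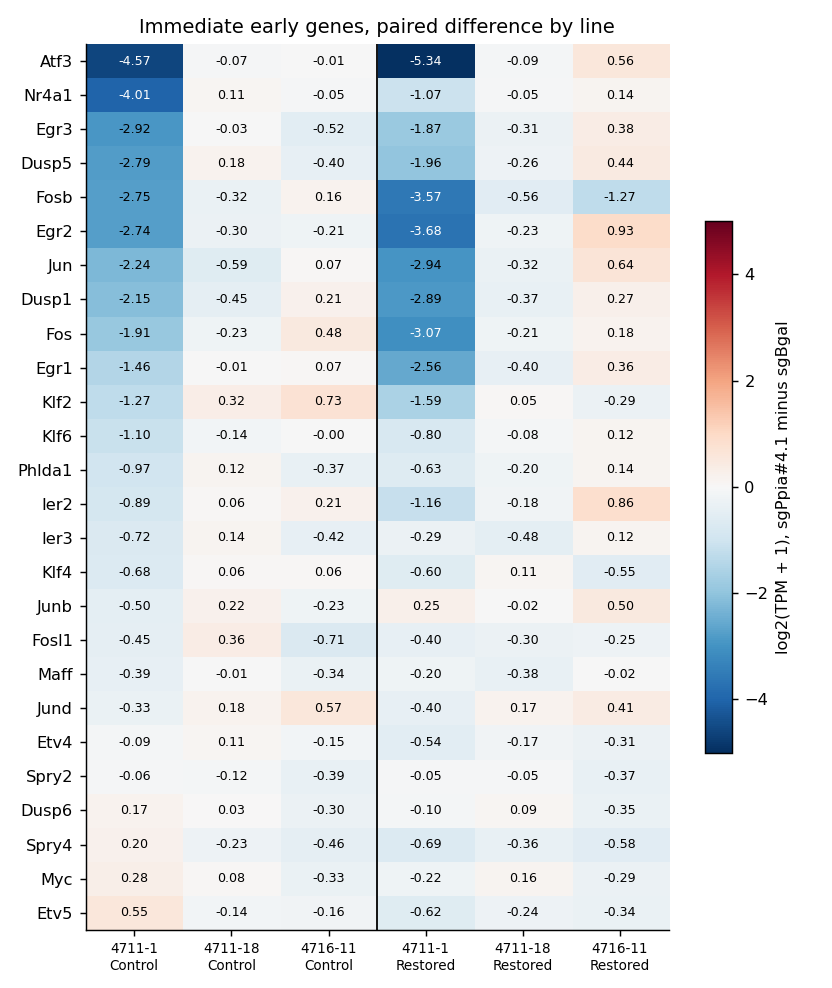
Paired difference on the log2(TPM + 1) scale (sgPpia#4.1 minus sgBgal, color and printed value) for the 26 immediate early genes (y axis) in each line and state (x axis), ordered by the Control pair of 4711-1. Blue is lower with sgPpia#4.1: the 2 columns of 4711-1 are dark for the upper genes, from -4.57 for Atf3 in Control cells, while those of 4711-18 and 4716-11 are pale.

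The same 12 genes were low again in the Restored pair of 4711-1. All 12 were lower there and 11 of 12 by at least 1, with a median of -2.72 beside -2.49 in Control cells. Of all genes, 2.6% were lower by at least 1 in that Restored pair. These are unlike sets, since the 12 were picked by their Control difference in 4711-1, where Control and Restored differences correlated (r = 0.51). In the Restored pairs of the other lines, 0 of 12 (4711-18) and 1 of 12 (4716-11) were lower by at least 1, beside 0.299% and 0.727% of all genes. These Restored samples come from the same edited populations, so they repeat the population and not the editing. With sgPpia#3.2 in Control cells, on the shared sgBgal samples, 3 of the 12 were lower by at least 1 in 4711-1, 8 in 4711-18 and 0 in 4716-11, where 151, 484 and 27 of all 11699 genes were. The medians of the 12 were -0.45, -1.31 and 0.04. In 4711-18, Fos stood at 53.9 TPM with sgPpia#3.2 against 337 TPM with sgBgal and 287 TPM with sgPpia#4.1, and Egr2 at 1.91 TPM against 28.7 and 23.2 TPM. Nr4a1 stood there at 33.1 TPM against 215 and 233 TPM. The line with the lowest median of these genes thus differed between the guides, as it did for the mitosis list.

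Other genes that differed in 4711-1 included Csrnp1, a nuclear factor gene, at 51.4, 15.5 and 23.2 TPM with sgBgal and 5.83, 12.2 and 19.6 TPM with sgPpia#4.1. Osgin1, an oxidative stress-induced growth inhibitor gene, stood at 264, 193 and 158 TPM against 68.9, 152 and 128 TPM, lower in every line. Hspa5, the main chaperone gene of the endoplasmic reticulum, stood at 1030, 952 and 783 TPM against 519, 833 and 634 TPM. Hsph1, which encodes a cytosolic chaperone of the HSP110 type, was more even over the lines, at 85.3, 118 and 93.5 TPM against 67.6, 92.5 and 69.4 TPM (mean -0.37, standard error 0.11, limma unadjusted p = 0.0147, adjusted p = 1.00). Of 24 cytosolic chaperone genes tested, 23 had a lower mean (63.5% of all genes did) and 9 were lower in every line (16.7% of all genes), but after rescaling 20 had a lower mean and 4 were lower in every line.

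Genes of glycolysis and hypoxia were higher on average, most of all in 4711-1. Of 27 tested, 20 had a higher mean (36.5% of all genes did). Without 4711-1, 15 of 27 were lower and the median was -0.01, where 8512 of all 11699 genes were lower and their median was -0.09. Of the 27, 7 were higher in every line (7.21% of all genes, and 9 of 27 after rescaling), and 5 were higher by at least 1 in 4711-1 (1.04% of all genes). The list's medians were 0.36, -0.04 and 0.03, beside 0.05, -0.16 and -0.02 over all genes. After rescaling they were 0.33, 0.13 and 0.04, above 0 in every line. Ndrg1, a hypoxia-induced gene, stood at 111, 156 and 128 TPM with sgBgal and at 205, 164 and 157 TPM with sgPpia#4.1. In the Restored pairs Ndrg1 differed by -0.66, -0.81 and 0.36, so its direction was not shared between states.

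NF-kB and inflammatory genes were lower on average, with 19 of 23 below 0 (63.5% of all genes), 9 of 23 lower in every line (16.7% of all genes, and 6 of 23 after rescaling) and 5 of 23 at an unadjusted p under 0.05 (3.3% of all genes in either direction). The medians were -0.43, -0.11 and -0.20, and after rescaling that of 4711-18 was 0.04, so the direction turned there. Saa3, an acute phase gene, stood at 12.5, 28.4 and 11.8 TPM with sgBgal and at 9.004, 11.3 and 8.89 TPM with sgPpia#4.1, without overlap, but the Restored differences were 0.20, -0.12 and 0.11. Ccl2, a monocyte chemokine gene picked with its values known, stood at 173, 149 and 213 TPM against 165, 104 and 105 TPM. The summed immune markers, at 4.29 to 5.03 TPM with sgBgal and 3.36 to 6.10 TPM with sgPpia#4.1, overlapped between groups.

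Histone genes repeated the split between lines. Of 21 canonical and linker histone genes tested, 18 had a lower mean (63.5% of all genes did), and the medians were -0.99, -0.12 and 0.22, with 10 of 21 lower by at least 1 in 4711-1 (1.3% of all genes), 0 in 4711-18 (0.402%) and 1 in 4716-11 (0.188%). Without 4711-1, 9 of 21 had a lower mean and the median was 0.08, where 8512 of all 11699 genes had a lower mean and their median was -0.09. H2ac10, a canonical H2A gene, stood at 43.7, 12.2 and 4.41 TPM with sgBgal and at 2.77, 7.90 and 2.67 TPM with sgPpia#4.1. Histone genes are short, lie in clusters of near-identical copies and give mostly RNA without a poly(A) tail, so their values depend on library selection and on how reads were divided among copies.

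Short RNA genes held most of the large mean differences. Of 165 microRNA and small nucleolar RNA genes tested, 12 had a mean difference of at least 1 in size, against 9 of 11118 protein-coding genes. An unadjusted limma p under 0.05 was found for 40 of the 165 and for 321 of the 11118. The standard deviation of the difference over these 165 genes was 0.97, 0.86 and 0.77 in the 3 lines, against 0.36, 0.24 and 0.19 over protein-coding genes. The smallest adjusted p of the whole comparison belonged to Mir3113, a microRNA gene, at 6.28, 3.73 and 6.09 TPM with sgBgal and 1.58, 0.64 and 1.75 TPM with sgPpia#4.1 (adjusted p = 0.113, limma). Mir3113 was the only gene of any kind that differed by at least 1 in the same direction in every line.

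For each gene given here, the values of the 18 samples, once scaled by relative depth, are whole multiples of 1 step of that gene's own, as read counts divided by gene length would be. In steps, Mir3113 held 10, 7 and 14 with sgBgal and 4, 1 and 4 with sgPpia#4.1. Snord35b, a small nucleolar RNA gene, held 5, 2 and 3 steps against 11, 9 and 16. Rmrp, the RNA of the RNase MRP complex, held 27, 14 and 34 steps against 64, 57 and 73. Snora61, another small nucleolar RNA gene, held 38, 24 and 45 against 45, 1 and 33. Its mean difference came mostly from that single step in 4711-18. The sgPpia#4.1 sample of 4711-1 was deeper than its partner (relative depth 1.73 against 1.09), so its steps are not to be compared without that ratio. Ddit4l, among the low protein-coding genes, held 129, 100 and 133 steps against 80, 57 and 70. Most small nucleolar RNAs lie within introns of host genes, and no source used here states that the counting kept strands apart, so host and small RNA reads cannot be told apart.

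The same contrast in Restored cells also gave no call (0% called). Of the 11699 genes, 813 (6.95%) had an unadjusted p under 0.05, and the smallest adjusted p was 0.658 in limma's test. The interaction of sgRNA and state gave 0 calls, with 169 genes at an unadjusted p under 0.05 and a smallest adjusted p of 0.711. Within a line, the Control and the Restored differences correlated across the 11699 genes with r = 0.51 in 4711-1, 0.31 in 4711-18 and 0.21 in 4716-11, and between different lines with r from -0.13 to 0.11. Control and Restored pairs share no sample but do share the edited population, and genes are not independent replicates.

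**Figure D5:**
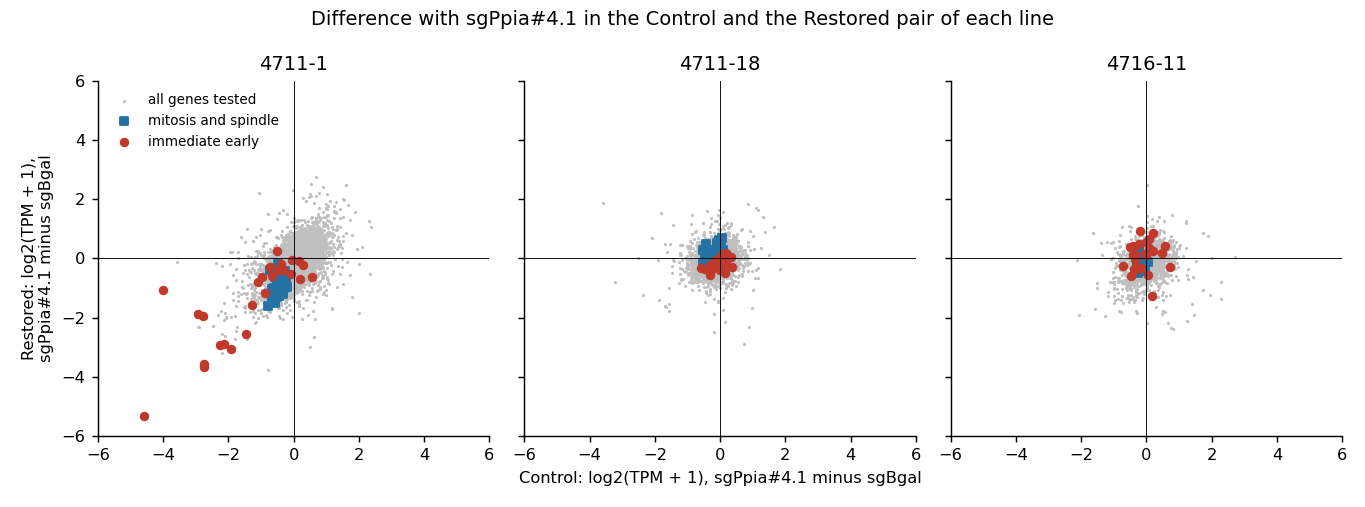
Difference between sgPpia#4.1 and sgBgal on the log2(TPM + 1) scale in the Control pair (x axis) and the Restored pair (y axis) of each line, for all 11699 genes tested (grey), the mitosis and spindle genes (blue squares) and the immediate early genes (red circles). In 4711-1 the points stretch along the diagonal (r = 0.51) and the immediate early genes reach the lower left, while in the other lines both lists stay near the center.

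Ppia was lower with sgPpia#4.1 in the Restored pairs also, by -0.30, -0.38 and -0.63. Among the genes lower in all 6 pairs were Csrnp1, Osgin1, Hspa5, Fancd2, Cdc6 and Ddit4l, and among those higher in all 6 were Bax, Phlda3 and Rpl13a. The genes with one sign in all Control pairs and the other in all Restored pairs numbered 114, or 0.974% of those tested.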

How the data were processed

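Total RNA from 3 Type D lines (4711-1, 4711-18, 4716-11) in 6 conditions was sequenced in 18 samples. The authors deposited 1 table of TPM for 25239 genes, in which each sample's values sum to the same total, so a gene's value also depends on all other genes. The submitters' processing notes name bcl2fastq 2.17, HISAT2, mm10 and GRCm39. The counter, annotation and strand handling are not given in the sources used here, read totals were not used, and precision is limited by 3 lines per group. Per-sample columns not used numbered 0.

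Groups came from the sample titles. Genes with at least 1 TPM in 3 of the 6 samples were tested on log2(TPM + 1) with limma 3.58.1 in R 4.3.3, with cell line as a block. This scale understates the change of low genes. Genes were called at an absolute log2 difference of 1 or more if the p-value, after Benjamini-Hochberg correction, was under 0.05. The lines pair the samples: the deviations of the 2 samples of a line from their group means correlated at r = 0.77, 0.86 and 0.83, and between lines at -0.22 or below. The study's methods do not state a block for these samples, so the fit without it is also given. The scripts were tested on simulated data.

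Members and lists were chosen with earlier results of these data known. Named genes were Ppia, the other cyclophilins and Trp53, called genes, the 10 highest and 10 lowest with the same sign in all lines and at least 5 TPM in a group, the 10 smallest p, the leading genes of each list with the same sign in all lines, and the 5 highest and 5 lowest of each line. Relative depth and steps came from the 18 columns, taking multiples within 0.01 as whole. For names, 25041 symbols matched RefSeq directly and 105 by a synonym, while 93 did not. Promoters are RefSeq windows of GRCm38.p6, matched by symbol. Alternatives covered the block, the samples fitted, the pseudocount (0.1), the filter, median-of-ratios rescaling, trend and robust estimates, and leaving out each line.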

Additional observations from a re-analysis of the deposited data

Results flagged for a closer look

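For 6 named genes every Control pair differed one way and every Restored pair the other. The interaction of sgRNA and state, as the Restored minus the Control difference on the log2(TPM + 1) scale, was -2.07 for Mir7079 (a microRNA gene) and -1.28 for Rmrp (the RNase MRP RNA). It was 1.32 for H4c12 and 0.92 for H4c3, both histone H4 genes. It was -0.35 for Tbc1d2, a regulator of Rab GTPases, and -0.18 for Plekhm2, an adaptor for lysosome transport. None passed the interaction test (limma, adjusted p = 0.711 for Mir7079 and H4c12 and 1.00 for the others), and 114 genes of 11699 (0.974%) had such opposite signs. In Control cells Mir7079 held 2, 11 and 4 steps with sgBgal and 9, 12 and 14 with sgPpia#4.1 in 4711-1, 4711-18 and 4716-11, and H4c3 held 5, 22 and 19 against 1, 11 and 7, so few reads lie behind them.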

How the results depend on the processing

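The count of 0 calls in Control cells held in limma under every fit with or without the block, the pseudocount of 0.1, each filter, trend and robust estimates, and no minimum fold change. The counts at an unadjusted p under 0.05 ranged from 27 (all 18 samples, no replicate block) to 899 (no filter). Median-of-ratios rescaling gave 1 call, Mir3113 (-1.43, adjusted p = 0.0405). Leaving out a line gave 0 to 24 calls: 15 without 4711-1, 0 without 4711-18 and 24 without 4716-11. The cause was not tested. The paired fit and the fit without the replicate block both gave 0 calls, with 386 and 34 genes at an unadjusted p under 0.05, and the block changed no call among the 165 named genes. Ppia kept its direction under all alternatives, between -0.55 (rescaled) and -0.64 (without 4716-11), with adjusted p from 0.058 (trend and robust) to 1.00. In Restored cells and for the interaction, all alternatives run gave 0 calls. Fgf2, at 0.19 over 3 lines, was -0.87 without 4711-1 (adjusted p = 0.0338) and 0.76 and 0.68 without 4711-18 and 4716-11. Of the calls without 4711-1, without 4716-11 and after rescaling, 11, 15 and 1 were among the 165 named genes.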

Other observations

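Without 4711-1, 2 protein-coding genes outside the named lists passed with the other lines alone. Igfbp5, an insulin-like growth factor binding protein gene, stood at 0.38, 12.4 and 8.42 TPM with sgBgal and at 0.39, 4.68 and 3.39 TPM with sgPpia#4.1, so that 4711-1 hardly expressed it (mean -1.17 over 4711-18 and 4716-11, limma adjusted p = 0.00384). Slpi, a secreted protease inhibitor gene, stood at 8.85, 5.22 and 7.04 TPM against 7.96, 1.81 and 3.34 TPM (mean -1.02 over the same lines, limma adjusted p = 0.0151). Both were picked after their values were seen, and with all 3 lines neither passed (adjusted p = 1.00). In the Restored pairs Slpi differed by -1.03, -0.71 and -1.04 and Igfbp5 by -0.00, 0.12 and -0.03.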
